A study of Homo sapiens with 19 samples.

Results

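HCC2998 is an established human colon carcinoma line, and it is described here against the 4 other microsatellite stable (MSS) lines of a panel of colon cancer lines. The members were chosen from the labels: the 2 arrays titled HCC2998 E1 and E2 on one side, and the 7 arrays of HT29, T84, CACO2 and SKCO1 on the other, out of 19 arrays in all. T84 has 1 array and the other lines have 2. The remaining 10 arrays come from 5 lines labelled microsatellite unstable (MSI: RKO, SW48, HCT116, LIM2405 and LS174T), which took no part in the rule for the genes described, apart from the choice of probe set. All lines were untreated, grew in DMEM with 10% fetal bovine serum and were taken in the exponential phase, and total RNA from Qiagen RNeasy columns was labelled with biotin for Affymetrix arrays by the One Cycle protocol. Each line is a single line without stromal or immune cells beside it, so a difference belongs to this line and not to a class of tumours. The labels number the arrays of a line E1 and E2 but do not say whether they came from separate cultures, so their spread may be technical.

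As background, microsatellites are short DNA repeats whose length stays stable while mismatch repair works. HCC2998 is known for a defect in the proofreading domain of DNA polymerase epsilon, so it carries many point mutations although its microsatellites are stable. Colon epithelium is built of absorptive colonocytes, mucus-secreting goblet cells and rare hormone cells, and cancer lines keep parts of these programmes to different degrees.

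Values are log2 expression after RMA, 1 probe set per gene, for 19775 genes. The median of all deposited values was 5.67 log2, and values below it lie where an array separates signal from background poorly. All 11 colon epithelium markers stood above that median in HCC2998, at 8.50 to 13.86 log2, with EPCAM at 13.67 and the cadherin CDH17 at 13.25. Markers of other cell types were mostly below it: 1 of 5 for fibroblasts, 1 of 4 for immune cells, 2 of 4 for endothelium, 0 of 4 for neuroendocrine cells, 0 of 4 for hepatocytes and 1 of 3 for squamous epithelium exceeded it. The HCC2998 arrays correlated at r = 0.99 over probe sets, with 863 probe sets at least 1 log2 apart. That number was 3157 for HT29, 2327 for CACO2 and 65 for SKCO1, so the duplicates of some lines spread more widely. Across probe sets the HCC2998 mean correlated with T84 at r = 0.94 and with CACO2 at r = 0.90, a description over features that share arrays and probes.

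Of all genes, 2 were higher in HCC2998 (0.0101%) when the 4 other lines gave the spread (limma on line means, Benjamini-Hochberg adjusted). They are MUC17, a membrane mucin of the intestinal brush border, and TDRD12, a Tudor domain protein of the piRNA pathway that is known in mouse for silencing transposons in the germ line. No gene was lower in that test (0.0%); at an unadjusted p under 0.05, 419 genes were higher (2.12%) and 336 lower (1.7%). The test sets 1 line against 4 and assumes that the lone line varies like the others. With HT29, T84, CACO2 or SKCO1 left out in turn, 0 genes passed.

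The promoters of these genes are shown because they lead the comparison, with every CG dinucleotide in capitals (RefSeq, GRCh38.p14, 250 bases before to 50 after the annotated start). The window of MUC17 is chr7:101019831-101020130 on the plus strand and that of TDRD12 is chr19:32719517-32719816 on the plus strand.
MUC17: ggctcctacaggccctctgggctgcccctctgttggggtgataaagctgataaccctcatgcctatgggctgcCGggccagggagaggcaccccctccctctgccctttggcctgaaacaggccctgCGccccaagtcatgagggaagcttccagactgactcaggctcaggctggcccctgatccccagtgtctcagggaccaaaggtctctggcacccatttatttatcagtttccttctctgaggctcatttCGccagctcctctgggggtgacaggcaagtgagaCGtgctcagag
TDRD12: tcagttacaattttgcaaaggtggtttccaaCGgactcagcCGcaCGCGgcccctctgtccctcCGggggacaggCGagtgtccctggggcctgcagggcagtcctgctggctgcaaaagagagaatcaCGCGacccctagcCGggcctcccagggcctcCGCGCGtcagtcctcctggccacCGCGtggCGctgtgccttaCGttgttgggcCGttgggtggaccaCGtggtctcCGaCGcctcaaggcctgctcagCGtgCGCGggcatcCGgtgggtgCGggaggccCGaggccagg
The MUC17 window has 4 CG dinucleotides and the TDRD12 window has 26. Of all promoters with an entry, 69.5% have more than MUC17 and 27.9% have more than TDRD12.

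The MUC17 arrays read 11.11 and 11.21 log2 in HCC2998, 4.68 and 4.59 in HT29, 4.61 in T84, 4.85 and 4.87 in CACO2, and 4.96 and 4.87 in SKCO1. HCC2998 alone was high and the groups did not overlap. The difference from the mean of the other lines was 6.40 ± 0.20 log2 (SE on line means, adjusted p = 0.0296). The other MSS lines lay under the array median, so no fold is given, and the log2 difference may understate the change. A different MUC17 probe set differed by only 0.23 log2, and 1 MSI line, LS174T, reached 8.36 log2. With the probe sets of a gene averaged, MUC17 no longer passed on line means. Nor did it pass with the spread taken from all 10 lines or against all 9 other lines, whereas TDRD12 passed in each of these settings.

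For TDRD12 the arrays read 10.65 and 10.64 log2 in HCC2998, 4.30 and 4.46 in HT29, 4.46 in T84, 4.15 and 4.34 in CACO2, and 4.19 and 4.41 in SKCO1. All other lines sat together near the array background, and the MSI lines did so too, at 4.26 to 4.74 log2. The difference was 6.30 ± 0.16 log2 (SE on line means, adjusted p = 0.0266) against values near background, and the gene has 1 probe set. Against the MSI lines TDRD12 was also higher in a limma fit on the 10 line means (adjusted p = 2.87e-05).

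With the 9 MSS arrays fitted by line, so that the duplicate arrays give the spread, 1836 genes were higher in HCC2998 (9.28%) and 2262 lower (11.4%). These calls cover only the spread between duplicates and say nothing of how lines vary. Fewer passed with either HCC2998 array left out: 968 to 972 higher and 1121 to 1229 lower. To find genes in which HCC2998 lies outside all other MSS lines, a gene was counted as set apart if it was called in this fit, both HCC2998 arrays lay outside the other 7, and the line mean was at least 1 log2 from the nearest other line. That rule took 209 genes set apart higher (1.06%) and 186 set apart lower (0.941%). Without the gap and the call, both arrays lay above the other 7 in 1375 genes (6.95%) and below them in 1384 genes (7.0%). At the edge of the rule, IFT122, IDS and PAFAH2 had gaps of 1.0002 to 1.0018 log2, and TSGA10, ZNF397 and RNF145 had gaps of 0.996 to 0.999 log2.

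**Figure D1:**
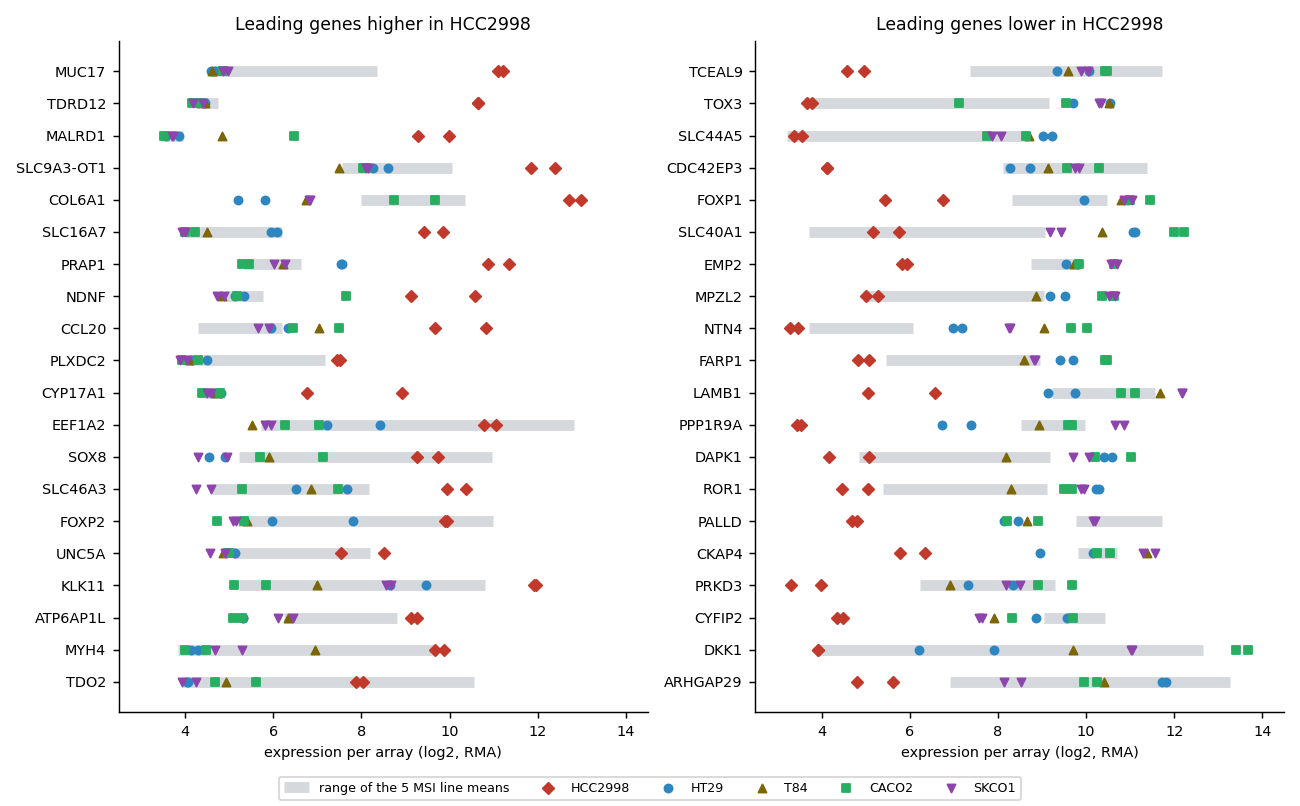
Expression per array (x axis, log2) of the 20 leading set-apart genes in each direction (rows). Red diamonds are the 2 HCC2998 arrays, other symbols the 7 other MSS arrays, and grey bars the range of the 5 MSI line means. In every row the red diamonds lie outside all other MSS symbols, and MUC17 and TDRD12 show the widest separation among the higher genes.

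The 20 leading genes in the higher direction were the pair above and 18 set-apart genes taken by their gap. Their differences ran from 3.10 to 6.40 log2, and 15 of the 20 were above all 9 other lines of the panel. HCT116 exceeded HCC2998 in EEF1A2, at 12.83 log2, and LS174T did so in FOXP2, at 10.98 log2. SW48 exceeded it in TDO2, SOX8 and UNC5A, at 10.55, 10.95 and 8.19 log2. MYH4 was nearly level with LS174T, at 9.77 and 9.72 log2. Since the rule chose them by these values, the levels below are a description.

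Several leading genes encode transporters, transport regulators or intestinal secreted proteins. PRAP1, a proline-rich acidic protein secreted by intestinal epithelium, read 10.88 and 11.36 log2 in HCC2998 and 5.29 to 7.56 in the other 7 arrays. SLC16A7, a monocarboxylate transporter, read 9.41 and 9.85 against 3.93 to 6.09 log2, and all 4 of its other probe sets were called higher as well. The transcript SLC9A3-OT1 read 12.38 and 11.85 against 7.49 to 8.60 log2. It lies within the span of SLC9A3, the sodium and proton exchanger of the brush border. SLC9A3 was itself set apart at 7.63 and 6.87 log2 against line means of 4.59 to 5.05. SLC46A3, a lysosomal membrane transporter, read 9.95 and 10.38 against 4.26 to 7.67 log2. For MALRD1, known from mouse as a regulator of bile acid metabolism through an intestinal FGF hormone, the arrays read 9.28 and 10.00 log2. Here the CACO2 arrays disagreed, at 3.52 and 6.48 log2, and the other lines were at 3.57 to 4.84 log2.

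Extracellular and signalling genes formed another part of the leading genes. COL6A1, a chain of collagen VI, read 12.70 and 12.97 log2 in HCC2998 against 5.21 to 9.67 log2. The highest of the others was CACO2, and 1 of its other probe sets gave a difference of -0.16 log2. CCL20, the chemokine ligand of CCR6, read 10.83 and 9.67 against 5.66 to 7.49 log2. The neurotrophic factor NDNF read 9.12 and 10.59 against 4.72 to 7.65 log2, and its highest other value was again 1 of the 2 CACO2 arrays. PLXDC2, a membrane protein with a plexin domain, stood at 7.52 and 7.45 against 3.89 to 4.49 log2, with all 5 other probe sets called higher. UNC5A, a netrin receptor, was at 7.55 and 8.51 against 4.56 to 5.14 log2, although its other probe set gave -0.11 log2. KLK11, a kallikrein protease, read 11.92 and 11.96 against 5.12 to 9.47 log2.

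Some of the leading genes are known mainly from other tissues. CYP17A1, the steroid hydroxylase and lyase of androgen synthesis, was at 4.37 to 4.81 log2 in the other 7 arrays. Its HCC2998 arrays read 6.77 and 8.93 log2, the widest duplicate disagreement among the leading genes (2.16 log2), and its other probe set differed by 0.077 log2. TDO2, the tryptophan dioxygenase of liver, read 7.89 and 8.04 against 3.92 to 5.61 log2, and its other probe set differed by 0.09 log2 and was not called. EEF1A2, the elongation factor form of muscle and neurons, read 11.06 and 10.79 against 5.52 to 8.42 log2. MYH4, a myosin heavy chain of fast muscle, read 9.87 and 9.67 against 4.0 to 6.94 log2, with T84 the highest of the others. Of the transcription factors, SOX8 read 9.74 and 9.27 against 4.29 to 7.12 log2. FOXP2, a forkhead repressor, read 9.94 and 9.90 against 4.73 to 7.81 log2, with 6 of its 8 other probe sets called higher. ATP6AP1L completed the group at 9.25 and 9.13 against 5.08 to 6.46 log2, with its other probe set at a difference of 0.38 log2 and not called.

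The 20 leading genes in the lower direction differed by 4.02 to 6.41 log2, and 16 of them were below all 9 other lines. The promoters of TCEAL9, a member of a family related to a transcription elongation factor, and of SLC44A5, a choline transporter-like protein, are shown as the leading lower genes that have an entry. CG dinucleotides are in capitals, and the windows are chrX:103356256-103356555 on the plus strand and chr1:75611065-75611364 on the minus strand (RefSeq, GRCh38.p14).
TCEAL9: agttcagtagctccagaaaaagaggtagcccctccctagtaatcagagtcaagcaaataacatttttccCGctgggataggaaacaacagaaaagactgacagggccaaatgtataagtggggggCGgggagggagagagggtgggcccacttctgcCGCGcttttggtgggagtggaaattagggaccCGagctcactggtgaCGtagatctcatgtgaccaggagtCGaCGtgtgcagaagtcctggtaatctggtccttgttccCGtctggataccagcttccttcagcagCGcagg
SLC44A5: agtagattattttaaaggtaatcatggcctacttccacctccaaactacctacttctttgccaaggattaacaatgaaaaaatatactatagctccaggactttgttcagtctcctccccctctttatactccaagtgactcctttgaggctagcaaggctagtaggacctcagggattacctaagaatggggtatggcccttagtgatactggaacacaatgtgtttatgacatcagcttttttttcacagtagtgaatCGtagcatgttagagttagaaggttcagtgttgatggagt
The TCEAL9 window holds 10 CG dinucleotides. The SLC44A5 window holds 1, together with the letters TATAAA, searched on both strands. This window lies inside the span of the gene, chr1:75202129-75724015, and not at its outer end. Its counts describe the window shown and no other start of SLC44A5.

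TCEAL9 read 4.96 and 4.57 log2 in HCC2998, 10.07 and 9.35 in HT29, 9.59 in T84, 10.43 and 10.48 in CACO2, and 9.88 and 10.05 in SKCO1. HCC2998 alone was low, and the lowest MSI line, LS174T, was at 7.37 log2. The difference was -5.17 ± 0.20 log2 (SE on arrays), with HCC2998 under the array median, but against the spread between lines its adjusted p was 0.188.

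SLC44A5 read 3.39 and 3.56 log2 in HCC2998 and 7.76 to 9.24 in the other 7 arrays. RKO among the MSI lines was as low, at 3.21 log2. TOX3, a chromatin-associated HMG-box protein, read 3.78 and 3.68 against 7.12 to 10.55 log2, and MSI lines also reached down to 3.59 log2. These 2 genes therefore separate HCC2998 from MSS lines and not from the whole panel. The same holds for SLC40A1 and MPZL2, described below. Their HCC2998 means of 5.46 and 5.14 log2 stood above HCT116 at 3.71 and RKO at 4.94 log2, respectively.

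Among the lower genes, 4 have roles at the actin skeleton and are given together here; they were grouped after their values were seen. CDC42EP3, an effector of CDC42, read 4.12 and 4.12 log2 in HCC2998 and 8.29 to 10.30 in the other arrays, with all 3 other probe sets called lower. PPP1R9A, an actin-binding phosphatase scaffold, read 3.44 and 3.54 against 6.73 to 10.86 log2, also with all 3 other probe sets called lower. CYFIP2, a subunit of the WAVE complex, read 4.48 and 4.35 against 7.57 to 9.69 log2. The actin-binding protein PALLD read 4.70 and 4.81 against 8.13 to 10.21 log2, but 1 of its 3 other probe sets gave 0.067 log2.

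Matrix, adhesion and Wnt genes made up a further group. LAMB1, a laminin beta chain of basement membrane, read 5.06 and 6.57 log2 against 9.14 to 12.18. NTN4, a netrin related to laminins, read 3.47 and 3.29 against 6.98 to 10.03 log2. MPZL2, a homophilic adhesion protein, read 5.28 and 5.01 against 8.87 to 10.65 log2, and EMP2, a tetraspan membrane protein, read 5.93 and 5.82 against 9.54 to 10.71 log2. DKK1, a secreted Wnt antagonist and target, was at 3.92 in both HCC2998 arrays and at 6.22 to 13.67 log2 in the others. Most MSI lines were low in DKK1 too, with LIM2405 at 3.96 and a median of 4.31 log2, although HCT116 reached 12.66 log2. CKAP4, which serves as a DKK1 receptor at the cell surface, read 6.34 and 5.77 against 8.95 to 11.55 log2. ROR1, a receptor for non-canonical Wnt ligands, read 4.47 and 5.05 against 8.29 to 10.30 log2.

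The remaining leading lower genes have other roles. SLC40A1, the iron exporter ferroportin, read 5.17 and 5.75 log2 against 9.19 to 12.22. DAPK1, a death-associated kinase, read 4.16 and 5.07 against 8.18 to 11.02 log2, and its other probe set differed by -0.86 log2. PRKD3, a protein kinase D, read 3.31 and 3.98 against 6.93 to 9.68 log2. FARP1, a FERM domain protein, was at 5.07 and 4.83 against 8.59 to 10.49 log2, and ARHGAP29 read 5.61 and 4.80 against 8.13 to 11.82 log2. FOXP1 read 6.75 and 5.43 against 9.96 to 11.45 log2, with 6 of 7 other probe sets called lower. FOXP1 and FOXP2, paralogous forkhead repressors, were thus set apart in opposite directions.

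Each MSS line was then taken alone against the other 4 in the same way. HCC2998 had the fewest set-apart genes, 395 (2.0%), against 419 for T84 on its 1 array, 484 for HT29, 722 for SKCO1 and 1177 for CACO2. On line means 2 genes passed for HCC2998, 3 for T84, 5 for HT29, 48 for SKCO1 and 274 for CACO2. Of the set-apart genes of HCC2998, 52.9% were higher, compared with 51.9% in HT29, 59.4% in T84, 65.8% in CACO2 and 69.5% in SKCO1. The counts share arrays and were not tested against each other. At a gap of 2 log2 the order changed, with 62 genes for T84 and 102 for HCC2998.

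**Figure D2:**
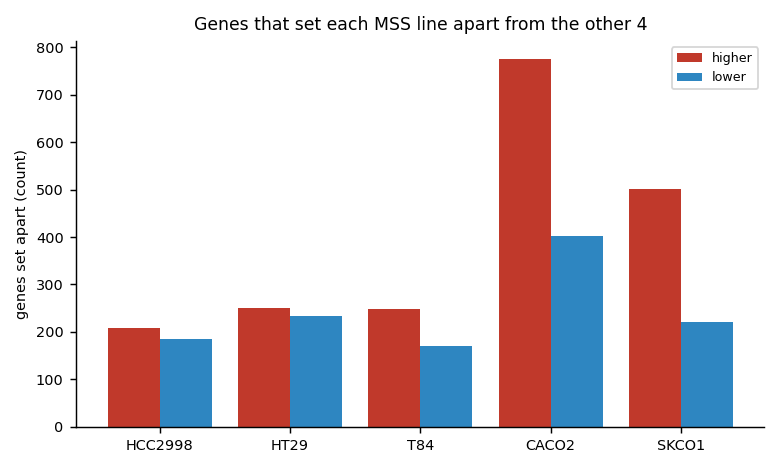
Number of genes (y axis) that set each MSS line (x axis) apart from the other 4, split into higher (red) and lower (blue). HCC2998 has 209 higher and 186 lower genes, and CACO2 has 775 and 402.

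The set-apart genes were then placed beside the MSI lines. MSI values did not enter the set-apart rule, but they did enter the choice of probe set for each gene, and the same 2 HCC2998 arrays stand on one side of both comparisons. A share above that of all genes follows in part from this choice, so the counts are a description. Of the 209 genes set apart higher, 142 (67.9%) were above all 5 MSI line means, and 65 (31.1%) by at least 1 log2. Among all genes 1.04% were above all MSI lines by that much. Of the 186 set apart lower, 122 (65.6%) were below all MSI lines and 59 (31.7%) by at least 1 log2, where all genes gave 1.1%. In a limma fit on the 10 line means, HCC2998 was higher than the MSI lines in 16 genes (0.0809%), of which 14 were set apart. It was lower in 7 (0.0354%), all of them set apart. The gene farthest above the nearest of all 9 lines was TDRD12, by 5.90 log2, followed by MALRD1 at 4.64 and PRAP1 at 3.57 log2. CDC42EP3 lay 4.0 log2 below the nearest line, PPP1R9A 3.57, PALLD 3.54, CKAP4 3.50 and LAMB1 3.41 log2.

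Gene lists for the tissue were described by counts in the fit on arrays, to be read beside the 9.28% higher and 11.4% lower of all genes and the median difference of all genes, -0.03 log2. The lists described were picked after their counts were seen, and no list was tested.

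**Figure D3:**
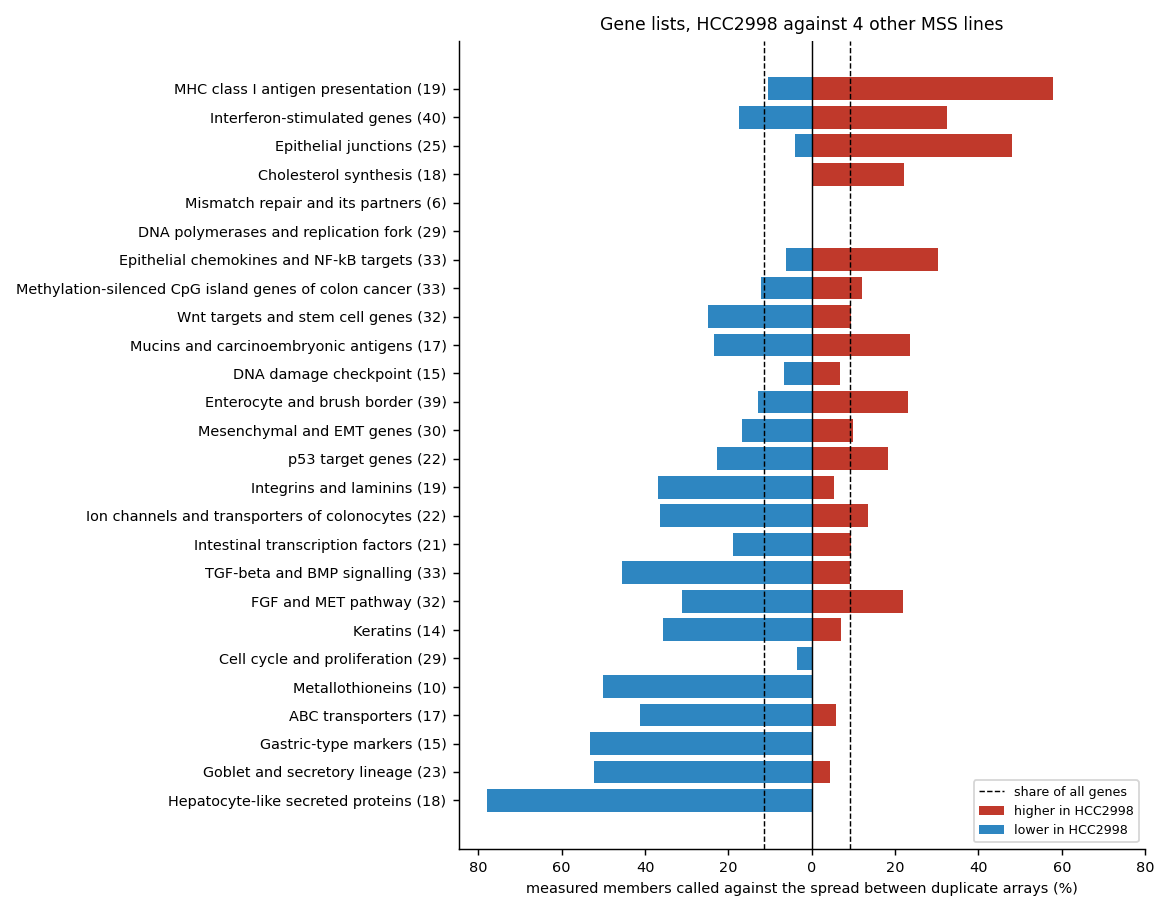
Share of measured members (x axis, percent) called higher (red, to the right) or lower (blue, to the left) in HCC2998 in the fit on arrays, for 26 lists with the number of measured members in parentheses. Dashed lines are the shares of all genes, 9.28% and 11.4%. MHC class I genes extend farthest to the right and hepatocyte-like proteins, whose count falls from 14 to 3 without CACO2, farthest to the left.

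Of 23 measured goblet and secretory genes 12 were lower (52.2%) and 1 was higher, and the median difference was -1.04 log2. REG4, a secreted lectin of goblet and hormone cells, stood at 4.96 log2 against 8.73 ± 1.89 (SD, n = 4 lines). The difference was -3.77 log2 (limma on arrays, adjusted p = 0.00114), and REG4 did not pass on line means (limma, unadjusted p = 0.0961). The related disulfide isomerases AGR3 and AGR2, of which AGR2 acts in mucin folding, differed by -3.27 and -1.47 log2. The trefoil peptides TFF1 and TFF3, which are secreted with mucus, differed by -3.25 and -2.92 log2. REG4, AGR3, TFF1 and AGR2 were set apart, and AGR2 still read 12.09 and 11.36 log2, far above the array median. ST6GALNAC1, which sialylates mucins, was 5.46 log2 in HCC2998 and 4.94 in CACO2, so it did not separate these lines. Gastric-type markers, which share TFF1 and TFF2 with the goblet list, had 8 of 15 lower (53.3%) and 0 higher by limma on arrays, also 0 higher at an unadjusted p under 0.05. ANXA10, an annexin of gastric epithelium, was at 4.25 log2 with T84 at 4.60 and CACO2 at 4.29.

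In the list of mucins and carcinoembryonic antigens, 4 of 17 were higher and 4 lower (23.5% each), and the 3 set-apart members were MUC17, MUC1 and MUC13, all transmembrane mucins of the apical surface and all set apart higher. MUC1 read 11.54 and 12.05 log2 in HCC2998 against line means of 6.71 to 10.34, and MUC13 read 12.30 and 12.53 against 6.25 to 10.91. Both had their other probe sets called higher. CEACAM5, the carcinoembryonic antigen, was at 6.92 log2, close to HT29 at 6.76 and far below T84 at 12.14 and SKCO1 at 13.67, and its other probe set differed by 0.01 log2. CEACAM1 was lower by 1.71 log2 (differences of -1.12 without HT29 and -2.62 without CACO2), with CACO2 lower still at 7.43 against 8.45 log2.

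MHC class I genes, which present peptides to cytotoxic T cells, had 11 of 19 members higher (57.9%) and 2 lower, with a median difference of 1.75 log2. None was set apart. With all probe sets of a gene averaged, 10 were higher, 1 lower and 1 set apart, with a median of 0.81 log2, and without CACO2 11 were higher and 4 lower. T84 was also high in many of the genes that were higher. HLA-B read 14.14 and 13.95 log2 in HCC2998, with 13.61 in T84 and 10.07 to 10.89 in the other lines. PSMB8, a catalytic subunit of the immunoproteasome, was at 10.99 log2 against 10.01 in T84 and 6.85 to 8.64 elsewhere. NLRC5, the transactivator of class I genes, read 10.54 and 9.19 log2 with T84 at 9.23 between them. TAP1, a subunit of the peptide transporter, was 10.17 log2 and below T84 at 10.63. Across the 19 genes HCC2998 was the highest of the 5 lines in 7 and T84 in 7. B2M, the shared light chain, was 12.27 log2 and the lowest of the 5 lines. The HLA genes of this list are related in sequence, and probes may read more than 1 of them.

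**Figure D4:**
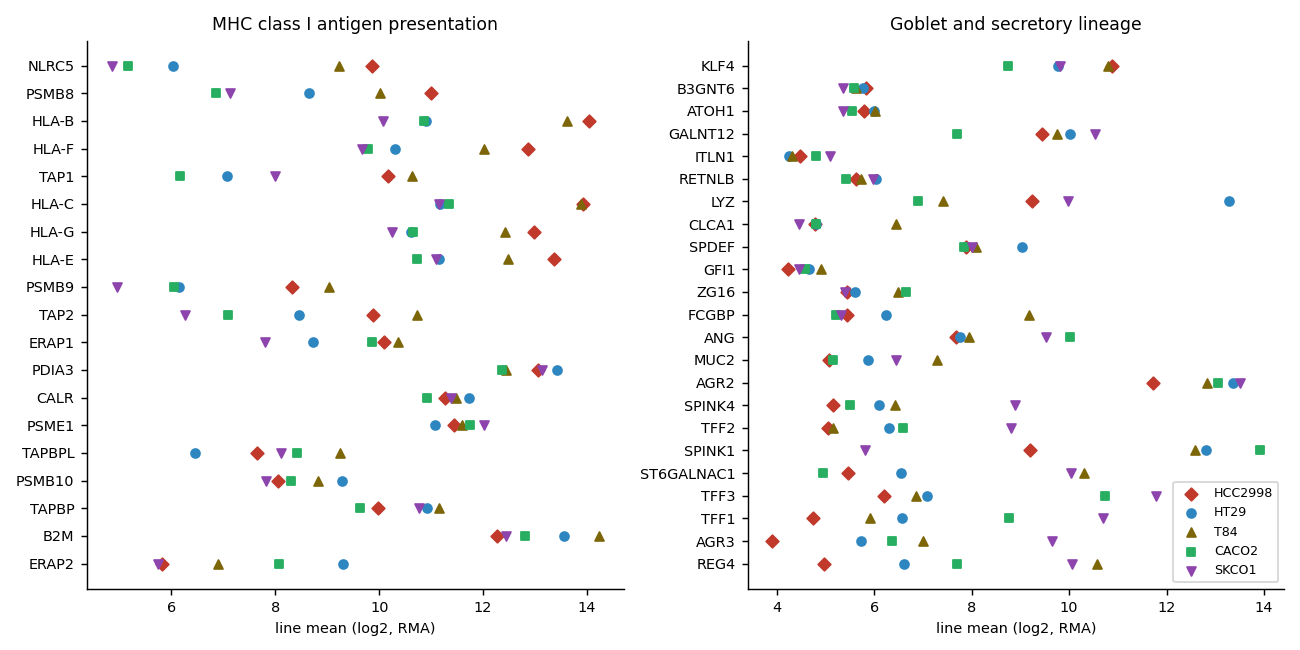
Line means (x axis, log2) of the MHC class I genes (left, 19 rows) and the goblet and secretory genes (right, 23 rows) in the 5 MSS lines. On the left the HCC2998 diamonds and T84 triangles lie to the right of the other lines in the 5 HLA genes, and on the right HCC2998 is the lowest line in 10 genes.

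Interferon-stimulated genes were mixed. Of 40 measured members 13 were higher (32.5%) and 7 lower (17.5%), with a median of 0.70 log2, which was 0.17 log2 without CACO2. ISG20, an RNA exonuclease, was the 1 set-apart member, at 11.74 log2 against 8.19 ± 1.07 (SD, n = 4 lines). IFI27, DDX60 and CMPK2 were higher by 3.40, 2.80 and 2.78 log2, but T84 reached 13.18, 10.40 and 9.52 log2, above HCC2998 in each, and without CACO2 the differences of IFI27 and DDX60 were 2.18 and 1.78 log2. BST2, the virion tether, was lower by 3.44 log2 at 5.35 log2, and SKCO1 was lower still at 4.48 log2. EPSTI1 was lower by 2.64 log2 and matched HT29, at 5.74 and 5.72 log2.

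Epithelial chemokines and targets of NF-kB had 10 of 33 members higher (30.3%) and 2 lower. CCL20, IL32, CXCL2 and ICAM1 were set apart. The cytokine IL32 read 12.17 and 11.51 log2 against line means of 6.23 to 9.15. ICAM1, a leukocyte adhesion receptor, read 9.35 and 9.32 against 6.72 to 8.08, and the neutrophil chemokine CXCL2 read 10.26 and 9.55 against 6.63 to 8.83 log2. LCN2, an iron-scavenging protein, was higher by 4.07 log2, or 2.67 without CACO2, with HT29 close at 13.24 against 14.06 log2. CXCL1 and CXCL3 were also called higher, but SKCO1 exceeded HCC2998 in both, at 11.70 and 10.84 log2.

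Of 25 epithelial junction genes 12 were higher (48.0%) and 1 lower, with a median of 0.70 log2. Without CACO2 11 were higher, with a median of 0.46 log2. CLDN15, a claudin that forms sodium-permeable pores in intestine, was set apart at 11.53 log2 against 8.37 ± 0.26 (SD, n = 4 lines) and was also 2.60 log2 above the nearest MSI line. DSG2, the desmosomal cadherin of simple epithelium, was 13.18 log2 and CLDN7 12.42 log2, each above all 7 other MSS arrays. CLDN3 was 12.55 log2, next to T84 at 12.59. PKP2, a desmosomal plaque protein, was lower by 1.41 log2 but level with HT29, at 8.86 and 8.77 log2.

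Keratins had 5 of 14 lower (35.7%) and 1 higher, and 7 lower and 0 higher when CACO2 was left out. KRT8, the main keratin of simple epithelium, read 12.33 and 12.31 log2 and lay below the 7 other MSS arrays, at a difference of -1.06 log2. KRT80 was called lower at 6.69 log2, although CACO2 was lower still at 4.59 log2. Integrins and laminins had 7 of 19 lower (36.8%) and 1 higher. LAMB1 was the set-apart member, and LAMA5 was lower by 1.37 log2 with T84 at 9.28 close to 8.96 log2. ITGB8 was lower by 2.18 log2 but above CACO2, at 6.96 against 6.71 log2. Mesenchymal genes had 3 of 30 higher (10.0%) and 5 lower (16.7%), near the shares of all genes. The exceptions were the collagens COL6A1 and COL4A2, the latter a basement membrane chain at 10.59 log2 against 8.67 ± 0.41 (SD, n = 4 lines). CAV1, the caveolar coat protein, lay below the 7 other MSS arrays at 5.57 and 5.39 log2.

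TGF-beta and BMP genes had 15 of 33 members lower (45.5%) and 3 higher. Among ligands BMP4 differed by -2.29 log2 (-1.39 without SKCO1) and was below the 7 other MSS arrays, BMP2 was at 4.01 log2 next to SKCO1 at 3.78, and TGFB1 was 5.85 log2 with a further probe set at a difference of 0.057 log2. The type II receptor BMPR2 was set apart at 8.23 log2 against 9.95 ± 0.71 (SD, n = 4 lines), but its 5 other probe sets differed by -1.19 to -0.067 log2 and were not called. TGFBI, a matrix protein induced by TGF-beta, was set apart at 9.34 and 8.39 log2 against line means of 9.93 to 13.22. BAMBI, a decoy receptor that dampens the pathway, was higher by 2.31 log2, or 1.07 without HT29, with CACO2 at 11.23 and SKCO1 at 11.18 close to its 11.60 log2.

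Among Wnt targets and stem cell genes 8 of 32 were lower and 3 higher. DKK1 was the set-apart member. PROM1, the stem cell antigen prominin, was 4.44 log2 in HCC2998 and 4.07 in T84 but 11.32 to 12.87 log2 in the other 3 lines. EPHB3, a Wnt-dependent ephrin receptor of the crypt, was below the 7 other MSS arrays and lower by 1.04 log2. DKK4 was higher by 1.11 log2 and above the 7 other MSS arrays, although its 6.10 log2 was close to the array median.

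Growth factor genes of the FGF, IGF and MET families had 7 of 32 higher (21.9%) and 10 lower (31.2%), and 4 higher without CACO2. IGFBP3, an IGF-binding protein, was set apart higher at 8.88 and 7.79 log2 against line means of 5.00 to 5.66. IGFBP4 was set apart lower at 5.36 log2 against 8.67 ± 1.53 (SD, n = 4 lines). FGFR2, the receptor of keratinocyte growth factor, was set apart lower at 4.64 log2 against 6.66 to 11.85, with 4 of its 10 other probe sets called lower. KITLG, the ligand of KIT, was set apart lower, with HCC2998 arrays at 7.31 and 8.37 log2 and other line means of 9.96 to 11.41; its 3 other probe sets differed by -1.32 to 0.0995 log2 and were not called. With probe sets averaged, 2 genes of this list were set apart, not 4. FGF19, an intestinal hormone of bile acid control, was 10.46 log2, level with HT29 at 10.09 and above the 3 other lines at 4.80 to 5.59 log2.

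Of the intestinal transcription factors, 2 of 21 were higher and 4 lower, and 7 were lower without CACO2. FOXA1, a pioneer factor of endodermal epithelium, was set apart at 4.38 and 4.62 log2 against line means of 6.75 to 10.23. FOXA2 was 5.16 log2, close to SKCO1 at 4.87. GRHL2, a grainyhead factor of epithelial junctions, was below the 7 other MSS arrays at 8.24 log2, and HNF4G was above them at 9.39 log2.

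In the enterocyte and brush border list 9 of 39 were higher (23.1%) and 5 lower (12.8%). The carbonic anhydrase CA1 was set apart at 7.95 and 6.90 log2 against 5.79 ± 0.15 (SD, n = 4 lines), while its other probe set differed by 0.10 log2. CA2 was 8.10 log2, above the 7 other MSS arrays, with CACO2 next at 7.20. PDZK1, a scaffold of brush border transporters, was below the 7 other MSS arrays at 4.05 log2, with T84 at 4.41 log2. CDHR5, a cadherin that links microvilli, was lower by 1.94 log2.

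Ion channel and transporter genes of colonocytes had 8 of 22 lower (36.4%) and 3 higher (13.6%). The potassium channel subunit KCNE3, which pairs with KCNQ1 in chloride-secreting epithelium, was set apart lower at 7.97 log2 against 11.25 ± 0.69 (SD, n = 4 lines). KCNQ1 itself was higher by 1.76 log2 and above the 7 other MSS arrays. SCNN1A, a subunit of the epithelial sodium channel, was set apart lower at 9.13 and 8.35 log2 against 10.28 to 11.63, but its other probe sets differed by -0.33 to -0.15 log2 and were not called. SLC9A3 was set apart higher. KCNN4 was 6.10 log2, level with HT29 at 5.93 and CACO2 at 5.75.

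Hepatocyte-like secreted proteins had 14 of 18 lower (77.8%) with a median of -1.81 log2, and 3 lower with a median of -0.01 log2 once CACO2 was left out. The defining hepatocyte markers were at 3.72 to 5.30 log2 in HCC2998, all under the array median. RBP4, a retinol carrier, was below the 7 other MSS arrays at 5.15 log2 against 6.0 to 13.51. Among ABC transporters 7 of 17 were lower (41.2%) and 1 higher. ABCA1, the cholesterol exporter, was set apart at 4.39 log2 against 6.05 to 10.20, and ABCC4 was set apart at 8.09 log2 against 9.23 to 10.55. Of 3 other probe sets each, 1 of ABCA1 and 0 of ABCC4 were called lower, with differences of up to 0.024 and 0.13 log2. With probe sets averaged, 0 ABC genes were set apart. The drug pump ABCB1 was low in HCC2998, HT29 and SKCO1 alike, at 3.87, 3.77 and 4.39 log2.

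Cholesterol synthesis genes had 4 of 18 higher (22.2%) and 0 lower by limma on arrays (0 also at an unadjusted p under 0.05), with a median of 0.49 log2, and 7 higher without CACO2. INSIG1, which retains the sterol sensor in the endoplasmic reticulum, was set apart at 11.62 and 12.61 log2 against line means of 7.61 to 10.75. MSMO1, a sterol demethylation enzyme, was 11.55 log2, with CACO2 at 11.20. Metallothioneins, which bind zinc and copper, had 5 of 10 lower and 0 higher by limma on arrays (0 also at an unadjusted p under 0.05). MT2A was 8.64 log2, between CACO2 at 8.24 and SKCO1 at 9.0. These genes share sequence, and probes may not separate them.

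No measured gene of DNA replication or mismatch repair passed the test, which does not show that their expression was unchanged. The HT29 arrays disagreed in FEN1, at 10.24 and 8.43, and in RPA3, at 9.89 and 8.12 log2. The SE on arrays was 0.41 log2 for both. For MSH6 the HT29 arrays were closer, at 9.07 and 8.82 log2, with an SE of 0.19 log2. Of 29 polymerase and replication fork genes 0 were called by limma on arrays in either direction, with 4 higher and 1 lower at an unadjusted p under 0.05. Of 6 measured mismatch repair genes and partners 0 were called by limma on arrays, with 1 higher at that unadjusted p. Without CACO2, the first list had 2 higher and 1 lower and the second 1 higher. POLE, which encodes the catalytic subunit of polymerase epsilon, read 8.41 and 8.69 log2 in HCC2998 against 8.69 ± 0.53 (SD, n = 4 lines). The difference of -0.14 ± 0.19 log2 (SE on arrays) did not pass, and expression does not report on a mutation. MSH6 was 10.64 log2 against 10.16 ± 0.85 (SD, n = 4 lines) and also did not pass. In the DNA damage checkpoint list 1 of 15 was higher and 1 lower. RAD50, a subunit of the MRN double-strand break complex, was set apart at 10.91 and 10.57 log2 against 9.36 ± 0.08 (SD, n = 4 lines). Its other probe sets differed by 0.07 to 0.67 log2 and were not called.

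Cell cycle genes had 0 of 29 higher by limma on arrays (1 at an unadjusted p under 0.05) and 1 lower, with a median of -0.51 log2, or -0.27 without CACO2. The lower member, CENPF, a kinetochore protein, was set apart at 7.41 and 6.98 log2 against 10.59 ± 0.43 (SD, n = 4 lines), with 1 of 2 other probe sets called. Targets of p53 had 4 of 22 higher (18.2%) and 5 lower (22.7%). ZMAT3, an RNA-binding target, was above the 7 other MSS arrays at 8.51 log2, and RRM2B, the p53-inducible ribonucleotide reductase subunit, was below the 7 other MSS arrays at 6.80 log2. Genes known to be silenced by methylation in colon cancer had 4 of 33 higher and 4 lower (12.1% each). DAPK1 and TMEFF2, a membrane protein with follistatin domains, were set apart lower; TMEFF2 was 4.02 log2 against 5.70 ± 0.34 (SD, n = 4 lines), near the array background, and its other probe sets were not called. MGMT, the alkyl transferase, was 8.64 log2, level with HT29 at 8.57.

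The place of the set-apart genes on the chromosomes was described next. Of 393 placed set-apart genes, 44 (11.2%) sat beside another one set apart in the same direction, in 20 runs of adjacent measured genes. Among all genes 1.06% were set apart higher and 0.941% lower, but no share expected for such runs was computed. The runs were chosen by these values and were not tested. On chromosome 2, PRKD3, QPCT and CDC42EP3 formed a run of lower genes with differences of -4.46, -4.77 and -5.22 log2. On chromosome 5, SLC9A3, SLC9A3-OT1 and SLC9A3-AS1 were higher by 2.44, 4.09 and 2.89 log2. These transcripts lie at 1 locus, with the other ones inside the span of SLC9A3, so their signals may not be separate. The same holds for SNHG4 and MATR3, a further run on chromosome 5 whose members start at the same position. On chromosome 7, THSD7A, TMEM106B and VWDE were higher by 1.87, 2.49 and 2.09 log2, and AGR2 and AGR3 are neighbours there too. On chromosome 19, RASIP1, IZUMO1 and FUT1 were higher by 2.53, 1.70 and 2.34 log2, as were the neighbouring troponin genes TNNT1 and TNNI3 by 2.70 and 2.23 log2.

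Over whole chromosomes the medians moved little. Among the 13810 genes whose highest MSS line mean exceeded the array median, the median difference was -0.05 log2, with 12.7% higher and 16.0% lower. Chromosome 13 had the highest median, 0.22 log2 with 29.0% higher, and chromosome 20 the lowest, -0.29 log2 with 30.0% lower. Against single lines the chromosome 13 median ran from -0.07 log2 for SKCO1 to 0.69 for T84. The chromosome 20 median ran from -0.52 log2 for CACO2 to -0.003 for SKCO1. Chromosome 7 had 25.2% higher and chromosome 4 had 26.2% higher, with medians of 0.14 and 0.16 log2 that were above 0 against each of the 4 lines. Chromosome X had 26.6% lower and chromosome 12 had 21.6% lower, with medians of -0.19 and -0.18 log2. Like chromosome 20, both were at or below 0 against each of the 4 lines. Copy number was not measured.

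**Figure D5:**
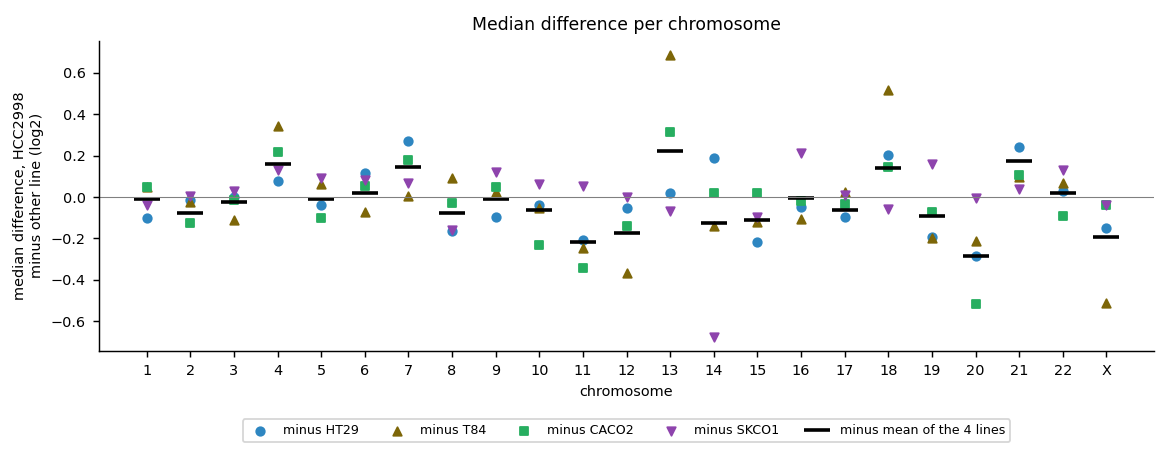
Median difference of HCC2998 from each other MSS line (coloured symbols) and from their mean (black bars) per chromosome (x axis), in log2 (y axis), over genes above the array median in any MSS line. The points of chromosomes 4, 7 and 21 are all above 0, and on chromosomes 12, 20 and X all are at or below 0.

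Promoter composition was compared by counts. A ratio of observed to expected CG of at least 0.6 was found in 63.7% of the 157 promoters of genes set apart higher and in 77.6% of the 156 of genes set apart lower. All genes with an entry gave 66.5%, and those above the array median in an MSS line gave 77.4%. The letters TATAAA on either strand were in 12.1% of the higher and 7.69% of the lower windows. All measured genes with an entry gave 8.76%, and those above the array median in an MSS line gave 6.26%. Over all 27305 promoters, measured or not, the share was 12.0%.

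Different probe sets of a gene gave a check within the same arrays. Of 118 genes set apart higher that have other probe sets, 82 (69.5%) had at least 1 other called in the same direction, and of 134 set apart lower 96 (71.6%) did.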

How the data were processed

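The values the authors deposited are log2 expression, made with RMA per the submitters' processing notes, a method in which probe signals are background-corrected, quantile-normalized over arrays and combined into 1 value a probe set. The RMA version is not given in the sources used here. That the scale is log2 was read from the values (2.78 to 14.92). No normalization was added. Of 54675 probe sets, 62 controls were left out and 41091 name 1 gene; 41037 matched RefSeq (GRCh38.p14), and the probe set with the highest mean over 10 line means stood for each of 19775 genes. Arrays have no depth, and their number limits the precision.

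limma 3.58.1 (lmFit, eBayes, two-sided, R 4.3.3) was fitted across all genes, on line means and on arrays, adjusted by Benjamini-Hochberg and called at 0.05. Errors are SDs over 4 lines or limma SEs. Data with planted changes were simulated for HCC2998 against 4 lines over 19775 genes, with normally distributed line values. There line means recovered 0% of genes changed by 1 or 2 log2, 58% at 4 and 78% at 6, with 1 false among 69 calls. In the real data 2 genes passed, and none of the 20 leading lower genes did, at differences of 4.02 to 6.41 log2. The simulated shares therefore do not give the power of the test on these data.

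The members and lists were chosen with earlier results of these data known. Named genes are up to 20 per direction called on line means and set apart, filled by the gap to the nearest line (uncharacterized, antisense and Y-linked symbols left out), and up to 6 members per list called in either fit, besides the set-apart ones, POLE and the colon markers. Array numbers E1 and E2 were compared between lines by the correlation of E2 minus E1, which ran from -0.21 to 0.26. The highest was between CACO2 and HT29. With signs mixed, arrays were not paired in the main fits, and a batch shared by some lines was not tested. Alternatives covered normalization, dim genes, the probe set rule, each line and HCC2998 array left out, eBayes settings, the spread and the gap.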

Additional observations from a re-analysis of the deposited data

Results flagged for a closer look

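Among the 176 named genes, 20 had 1 of the 4 other MSS lines far from the remaining 3, measured as its gap to the nearest line over their range. For unselected, normally distributed values this measure flags about 1 in 20 groups. Most named genes were chosen by their difference from the mean of these same lines, which a far line can itself produce. That rate is therefore no baseline for the 20. CACO2 was the far high line for APOB (ratio 0.986), ALB (0.976), APOA2 (0.975), AHSG (0.973), APOA1 (0.971), the laminin chain LAMA1 (0.959) and KRT4 (0.946). CACO2 was the far low line for the epithelial factor EHF (0.953), MUC20 (0.921), SCNN1A (0.873) and KRT20 (0.849). SKCO1 was far high for the Wnt inhibitor WIF1 (0.955), KRT12 (0.844) and CXCL1 (0.840), and far low for alpha-catenin, CTNNA1 (0.951), and SPINK1 (0.836). HT29 was far high for FGF19 (0.852) and far low for IL32 (0.853). T84 was far high for HLA-C (0.933) and far low for the water channel AQP3 (0.846).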

How the results depend on the processing

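Genes passing on line means numbered 2, and 1 with the mean of a gene's probe sets, 11 with trended eBayes, 13 with the spread from all 10 lines (9 higher, 4 lower) and 15 against all 9 other lines, all of them set apart. With a line or an HCC2998 array left out the count ran from 0 (each line) to 3. Calls on arrays then ran from 968 to 2035 higher and from 1121 to 2548 lower, lowest without either HCC2998 array and highest without HT29. With the replicate block (E1 or E2) they were 1840 and 2273, close to 1836 and 2262. Genes set apart ran from 209 to 344 higher (without T84) and from 186 to 310 lower (without HT29; 289 without T84). At a gap of 2 log2 there were 50 and 52, and the lower count was 123 with mean probe sets. At that gap HT29 had 118, T84 62, CACO2 416 and SKCO1 203. With no minimum gap, 142 higher and 122 lower genes lay beyond all MSI lines. List members set apart were 39, and 64 without CACO2, an alternative chosen after seeing the data. With mean probe sets, set-apart members went from 4 to 2 for chemokines, from 3 to 1 for ion channels, from 2 to 1 for TGF-beta and methylation-silenced genes, and from 1 to 0 for checkpoint genes.

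Of 2642 comparisons of 176 named genes with alternatives, 2474 kept direction and side of the threshold, 141 lost and 12 gained the call, and 15 changed direction. With probe sets lacking the suffixes _s_at and _x_at, PALLD was 0.067, MSH3 -0.087, KRT7 0.15, TGFB1 0.057 and SC5D -0.54 log2. With single lines or arrays left out, POLE ran from -0.39 to 0.019 (without T84), CTNNA1 from -0.17 (without SKCO1) to 2.08 and KRT7 from -2.21 to 0.43 (without SKCO1). The far value was that without CACO2 for KRT20 (-1.21 to 1.51), APOB (-2.69 to 0.23), APOA1 (-2.54 to 0.33), EHF (-0.52 to 2.11), APOA2 (-2.98 to 0.16), ALB (-2.74 to 0.14) and LAMA1 (-2.39 to 0.29). Leaving out a line changes the mean by construction; other causes were not tested. Dim genes understate differences.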

Other observations

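Gene families picked by symbol after the set-apart genes had been seen gave further counts, with no test. Of 24 measured genes of cilium transport (symbols IFT or BBS), 11 were lower in HCC2998 in the fit on arrays (45.8%) and 2 higher. BBS1, a subunit of the BBSome, was 6.53 log2 against line means of 8.44 to 8.73, and IFT22 was 6.96 log2 against 8.19 to 10.19. Together with IFT122 and IFT56 they made 4 set-apart members.

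Zinc finger genes with ZNF symbols, many of them DNA-binding repressors, were counted by chromosome, and the difference between the counts was not tested. Of 220 on chromosome 19, 48 were lower (21.8%) and 24 higher (10.9%), with 8 set apart lower, among them ZNF83 at 4.75 log2 against 6.66 to 8.56 and ZNF14 at 4.17 log2 against 6.02 to 8.25. Of 246 on other chromosomes, 23 were lower (9.35%) and 34 higher (13.8%), with 1 set apart lower. All genes had 11.4% lower and 9.28% higher.

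From lists not described above, the methyltransferase DNMT3B, the enolase ENO2 and the glutathione transferase GSTA4 were set apart lower, with differences of -2.42, -3.11 and -2.97 log2. Cancer-testis antigens, another set of germ line genes, had 0 of 28 higher by limma on arrays (0 also at an unadjusted p under 0.05) and 2 lower. Of these 28, 24 did not exceed the array median in any MSS line, so the count says little about them. A list of genes linked to the germ line or DNA methylation had 3 of 17 higher and 3 lower (17.6% each), with 9 of the 17 under the array median.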
